A study of Homo sapiens with 12 samples.

Results

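The genes described here are 35 DNA damage checkpoint and repair genes, taken by gene symbol from the 58302 genes listed for each library, of which 36305 were above 0 somewhere in the 12 libraries. They were measured by RNA sequencing in 2 human renal carcinoma cell lines, 769-P and ACHN, which are established lines labelled as clear cell renal cell carcinoma cells. Each line was transfected for 48 h either with siRNA against NUF2 (si-NUF2), the gene for a subunit of the NDC80 complex that holds spindle microtubules at the kinetochore, or with control siRNA (si-NC). Each of the 4 groups had 3 libraries, and both arms of a line share its genotype and the transfection. The 12 libraries come from unsorted cultures, so a lower value may mean fewer cells that use a gene or less RNA per cell, which cannot be told apart. The labels give a replicate number and nothing on separate cultures, so the p-values measure the spread between these libraries, which may be technical.

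A cell that meets broken or stalled DNA slows its cycle and repairs the lesion. Broken ends are held by the MRE11-RAD50-NBN complex, which activates the kinase ATM, while single-stranded DNA at stalled forks brings ATRIP and the kinase ATR, helped by TOPBP1; the kinases CHEK2 and CHEK1 carry these signals to the cell cycle. Ends that are cut back, a step begun with RBBP8 (CtIP) and extended by EXO1 and BLM, are repaired by homologous recombination through BRCA1 with BARD1, PALB2 and BRCA2, whereas TP53BP1 protects ends and favours their direct joining. The Fanconi anemia proteins unhook crosslinks between DNA strands, and MSH6 and PMS2 act in mismatch repair. Many of these genes are known to be transcribed most in cells that replicate their DNA, in part through E2F factors.

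The promoters are shown first, since E2F factors are known to act at the promoters of many replication genes. RefSeq promoter windows (GRCh38.p14), each of 300 bases from 250 before to 50 after a transcription start, were found for 33 of the 35 genes, and NBN and FANCI had no entry. A match to any of the 4 E2F words TTTCCCGC, TTTCGCGC, TTTGCCGC and TTTGGCGC, on either strand, was present for 8 of the 33 genes (24.2%), against 4.0% of the 27305 genes in the table. The CCAAT box (CCAAT) was present for 19 of 33 genes, or 57.6%, against 39.7% of all genes, and the CHR element (TTTGAA), which is known from mitotic genes, for 4 of 33 genes, or 12.1%, against 18.2%. The CHR and CCAAT words were searched on either strand as well, and 0 of the 10 E2F matches shared a base with either. For comparison, 17 of 27 replication genes with a window (63.0%) held an E2F word, and 11 of 18 mitotic genes (61.1%) held a CHR element. A match describes these letters and is not a bound site.

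The 8 windows around the first E2F match are printed 5′ to 3′ on the strand of the gene, with the match in capitals, as the matches counted above; that the words resemble each other follows from the search.
XRCC2 (chr7:152676101-152676132, minus strand): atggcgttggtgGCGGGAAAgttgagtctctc
EXO1 (chr1:241848196-241848227, plus strand): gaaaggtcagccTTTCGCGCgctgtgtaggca
FANCA (chr16:89816800-89816831, minus strand): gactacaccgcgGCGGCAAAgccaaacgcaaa
FANCC (chr9:95317862-95317893, minus strand): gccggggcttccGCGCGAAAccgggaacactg
FANCD2 (chr3:10026423-10026454, plus strand): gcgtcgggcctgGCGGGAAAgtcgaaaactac
MSH6 (chr2:47783136-47783167, plus strand): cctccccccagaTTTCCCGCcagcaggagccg
PMS2 (chr7:6009130-6009161, minus strand): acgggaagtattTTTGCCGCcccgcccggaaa
TOPBP1 (chr3:133661929-133661960, minus strand): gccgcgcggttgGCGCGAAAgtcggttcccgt

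RBBP8, whose level was lower in both lines below, held no E2F word in either of its 2 windows, like most of the 33 genes. EXO1, called lower in 769-P cells below, held a word, while BARD1, also called lower there, held none. TP53BP1 and RAD54L, called higher below, held none either, and FANCI, also called higher, had no window. A link between a word and a change was not tested. The first RBBP8 window (chr18:22933078-22933377, plus strand) is printed as an example without a match, with no base in capitals.
RBBP8: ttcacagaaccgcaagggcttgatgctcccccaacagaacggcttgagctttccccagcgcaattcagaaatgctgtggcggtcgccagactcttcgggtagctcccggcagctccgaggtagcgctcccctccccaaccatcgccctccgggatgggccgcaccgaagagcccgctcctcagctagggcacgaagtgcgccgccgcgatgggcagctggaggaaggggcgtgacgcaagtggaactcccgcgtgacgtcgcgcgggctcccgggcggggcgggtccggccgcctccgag

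The values are FPKM, fragments per kilobase of exon divided by a size of each library, as the authors deposited them. Most of the low values were whole multiples of the worth of 1 read, which put the depth at 29244000 to 38865000 reads per library. The library size behind the FPKM was below these summed reads in most libraries and above them in the others. It was therefore not a plain total of mapped fragments, and how it was set is not given in the sources used here. The fits below scaled these values further. The 34 genes other than ATRIP then had between 80 and 7185 reads in a library, and ATRIP had 0 to about 13. The values recovered for ATRIP lay up to 0.4 from a whole read, as those of some other genes did, so its counts are approximate. The knockdown was seen in every library, which checks the labels. NUF2 (chr1:163266576-163355764, plus strand) stood at 19.4, 17.8 and 17.8 FPKM in the si-NC libraries of 769-P cells and at 4.17, 3.86 and 3.01 FPKM with si-NUF2. In ACHN cells it stood at 11.6, 15.0 and 14.8 FPKM with si-NC and at 2.16, 5.14 and 4.25 FPKM with si-NUF2, and the groups did not overlap in either line. The log2 fold change was -2.29 ± 0.13 (SE) in 769-P cells (limma, adjusted p = 0.00129) and -1.87 ± 0.32 in ACHN cells (adjusted p = 0.224, or 0.0122 with the replicate number as a block), while the exact permutation test gave its smallest possible p of 0.1 in each line. Of 8 renal epithelial markers, 7 had a mean of at least 0.5 FPKM in each group; KRT19 was below that in 769-P cells and CDH6 in ACHN cells, and the summed level was 263 to 306 FPKM in 769-P and 587 to 785 FPKM in ACHN libraries. The 4 leukocyte markers summed to at most 0.546 FPKM and the 3 endothelial markers to at most 0.0877 FPKM in any library, whereas the 3 fibroblast markers reached 2.82 FPKM in 1 si-NUF2 library of ACHN cells through PDGFRB, with DCN and LUM below 0.5 FPKM.

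Called genes are those with a Benjamini-Hochberg adjusted p under 0.05 over all genes tested by limma on log2(FPKM + 0.1), in a fit of the 6 libraries of a line. Same-numbered si-NUF2 and si-NC libraries deviated together in both lines, so counts of called genes are given both without and with the replicate number as a block. For single genes some adjusted p are given with the block only. Without the block, the lowest adjusted p of these genes by limma was 0.0551 in 769-P (RBBP8) and 0.451 in ACHN cells (RAD54L). The comparison of the lines under si-NC had no block. FANCM and ATRIP were under the filter of 0.5 FPKM in 769-P cells and ATRIP alone in ACHN cells, which left 33 and 34 genes tested. Without the block, none of the 33 genes was called in 769-P cells, where 9.98% of all 14155 genes were, and none of the 34 in ACHN cells, where 0.0% of 15116 genes were. At an unadjusted p under 0.05 the counts were 4 of 33 (12.1%, against 27.4% of all genes) and 4 of 34 (11.8%, against 8.19%) without the block, and 13 of 33 (39.4%, against 42.1%) and 16 of 34 (47.1%, against 32.2%) with it. With the block, 4 of 33 (12.1%) were called in 769-P cells against 27.5% of all genes, and 3 of 34 (8.82%) in ACHN cells against 12.2% of all genes. The genes lower with si-NUF2 were RBBP8, BARD1 and EXO1 in 769-P cells, against 13.9% of all genes in that direction, and RBBP8 in ACHN cells, against 5.05%. The genes higher with si-NUF2 were TP53BP1 in 769-P cells, against 13.6% of all genes, and RAD54L and FANCI in ACHN cells, against 7.14%. By adjusted p with the block the share of these genes lay below that of all genes in both lines, whereas by unadjusted p it lay below in 769-P and above in ACHN cells.

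The changes were small. With the block, the 95% intervals of all 33 genes tested in 769-P cells and of all 34 in ACHN cells lay between -1 and 1 on the log2 scale, with ends at -0.84 (RAD50) and 0.42 (TP53BP1) in the first line and at -0.48 (RBBP8) and 0.69 (XRCC2) in the second. In 769-P cells the median log2 fold change was -0.08, with 21 genes below 0 and 12 above, beside a median of -0.01 over all genes tested. In ACHN cells it was 0.17, with 6 genes below 0 and 28 above, beside 0.01 over all genes tested.

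**Figure D1:**
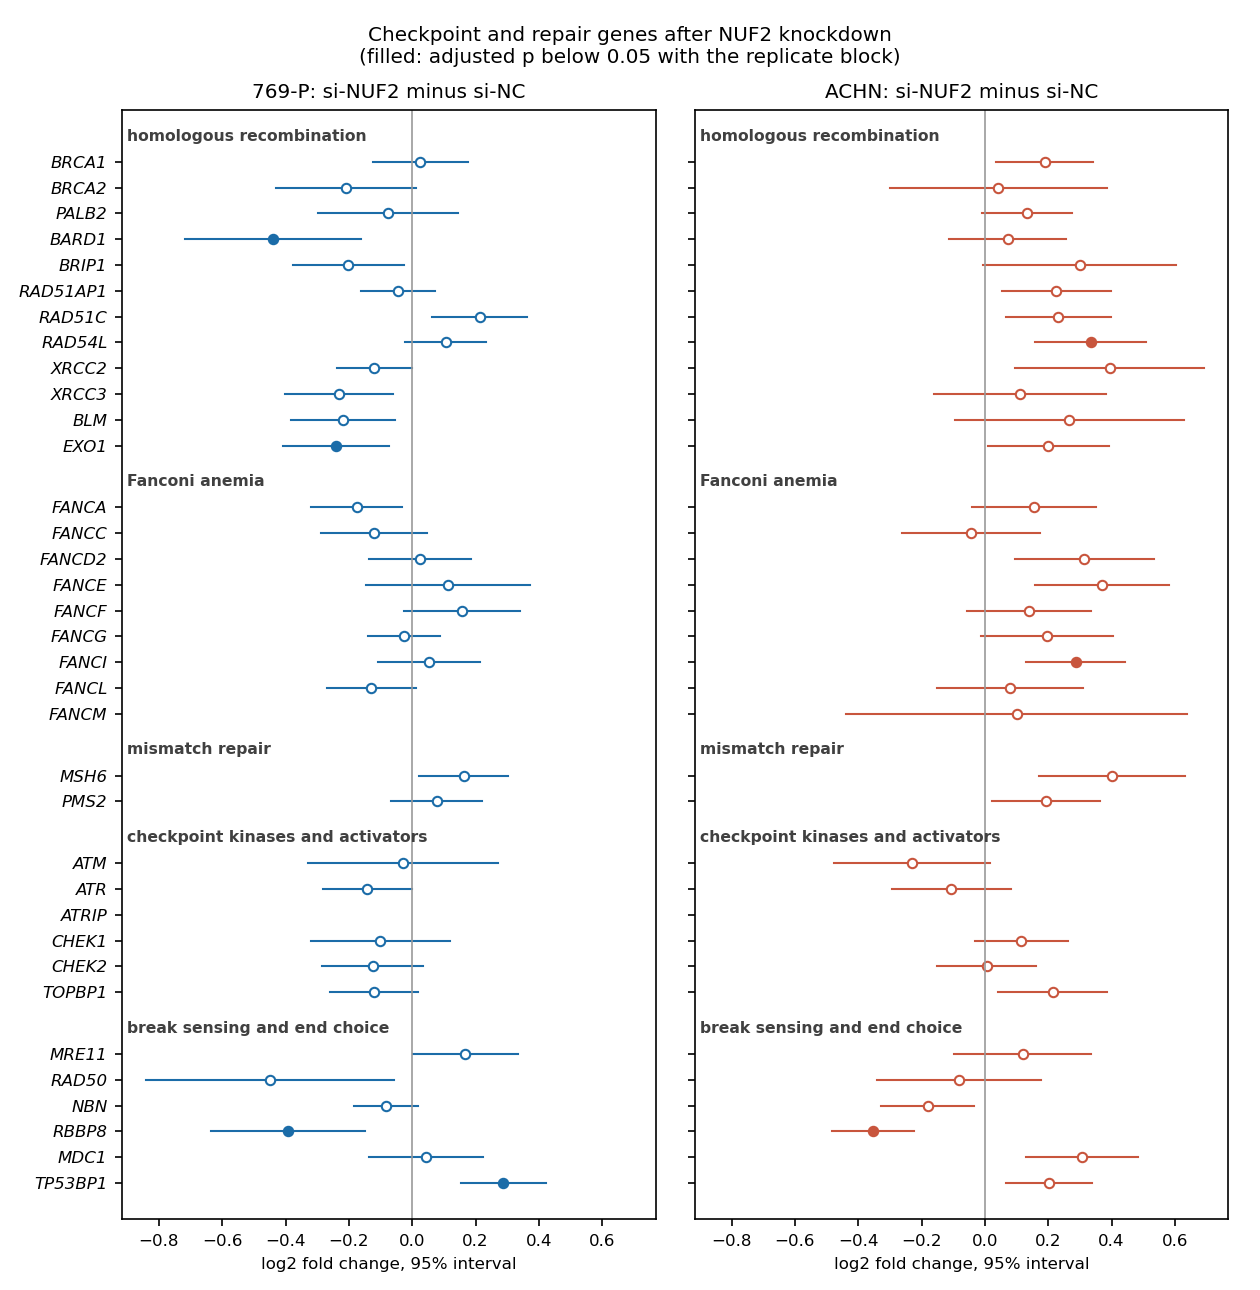
The log2 fold change of each gene, si-NUF2 minus si-NC, is plotted with its 95% interval for 769-P (left) and ACHN (right) cells, grouped by role, from the fit with the replicate block. Filled points are the 4 genes called in 769-P and the 3 called in ACHN cells, most points lie right of 0 in ACHN cells, and genes under the filter have no point.

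Among the proteins that sense breaks and choose how ends are joined, RBBP8 was the one gene of the 35 called in both lines with the block. RBBP8 (CtIP, chr18:22798261-23026488, plus strand) opens end resection. Its level in 769-P cells was 11.0, 10.6 and 12.3 FPKM with si-NC and 9.45, 8.44 and 7.72 FPKM with si-NUF2. In ACHN cells it was 7.71, 8.47 and 8.82 FPKM with si-NC and 5.74, 6.58 and 6.995 FPKM with si-NUF2. All si-NUF2 libraries lay below all si-NC libraries in each line, and the mean was 75.5% of the control mean for 769-P and 77.3% for ACHN. The log2 fold change was -0.39 ± 0.10 (SE) in 769-P cells, with an adjusted p of 0.0551 without the block and 0.0382 with it. In ACHN cells it was -0.35 ± 0.11 without the block (adjusted p = 0.470) and -0.35 ± 0.05 with it (adjusted p = 0.0223). When a replicate pair was left out with the block, the adjusted p lay between 0.0388 and 0.0830 for 769-P and between 0.0588 and 0.0982 for ACHN cells, so the call in ACHN cells was lost without any pair, and that in 769-P without pair 2.

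TP53BP1, which shields ends from resection, was higher in 769-P cells. TP53BP1 (chr15:43403061-43510728, minus strand) stood at 4.71, 4.25 and 5.13 FPKM with si-NC and at 5.84, 5.10 and 6.22 FPKM with si-NUF2 in that line. Each si-NUF2 library exceeded its same-numbered control, although the groups overlapped. The log2 fold change of 0.29 ± 0.05 had an adjusted p of 0.0187 with the block and 0.149 without it. Leaving out pair 1 or 2 ended the TP53BP1 call (adjusted p = 0.0800 and 0.0854). In ACHN cells the levels were 6.63, 7.10 and 6.65 FPKM with si-NC and 7.87, 7.91 and 7.43 FPKM with si-NUF2, which did not overlap, and the log2 fold change of 0.20 ± 0.05 had an adjusted p of 0.0712 with the block. Of its exon bases, 28.7% are shared with genes on the other strand, chiefly TUBGCP4, and whether counting used strand is not given in the sources used here, so reads of the overlapping genes cannot be told apart.

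The MRE11-RAD50-NBN complex showed no common direction. RAD50 (chr5:132556019-132646344, plus strand) had the lowest log2 fold change of all in 769-P cells, at 0.980, 0.993 and 0.913 FPKM with si-NC against 0.629, 0.676 and 0.715 FPKM with si-NUF2. The groups did not overlap, but the adjusted p was 0.128 without and 0.0875 with the block for a log2 fold change of -0.45. RAD50 in ACHN cells was at 1.49, 1.28 and 1.35 FPKM with si-NC and at 1.41, 1.17 and 1.246 FPKM with si-NUF2, a log2 fold change of -0.08. Of the exon bases of RAD50, 79.7% are shared with AC116366.3 on the same strand, so its reads are counted with uncertainty. AC116366.3 itself was at most 0.0278 FPKM in any library, but how reads in shared bases were assigned is not given. The low value of AC116366.3 therefore does not show that the level of RAD50 is complete.

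MRE11, the nuclease of the complex, was at 2.53, 2.58 and 2.73 FPKM with si-NC and at 2.88, 2.95 and 2.95 FPKM with si-NUF2 in 769-P cells. These groups did not overlap either, in the opposite direction to RAD50, and the log2 fold change of 0.17 had an adjusted p of 0.117 with the block. In ACHN cells MRE11 was at 4.75, 4.73 and 4.98 FPKM with si-NC and at 5.87, 4.71 and 5.02 FPKM with si-NUF2. NBN, which recruits ATM, had the highest level of the 35 genes in 769-P cells, at 28.0, 27.9 and 36.0 FPKM with si-NC and 26.6, 26.1 and 33.4 FPKM with si-NUF2. In ACHN cells NBN was at 11.3, 10.8 and 13.8 FPKM with si-NC and at 10.4, 9.55 and 11.2 FPKM with si-NUF2. It was lower in 3 of 3 pairs in each line, with log2 fold changes of -0.08 and -0.18 and adjusted p of 0.181 and 0.104 with the block. MDC1, the scaffold that spreads the damage mark along chromatin, had a log2 fold change of 0.04 in the 769-P line (adjusted p = 0.676 with the block) and one of 0.31 in the ACHN line (adjusted p = 0.0514).

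**Figure D2:**
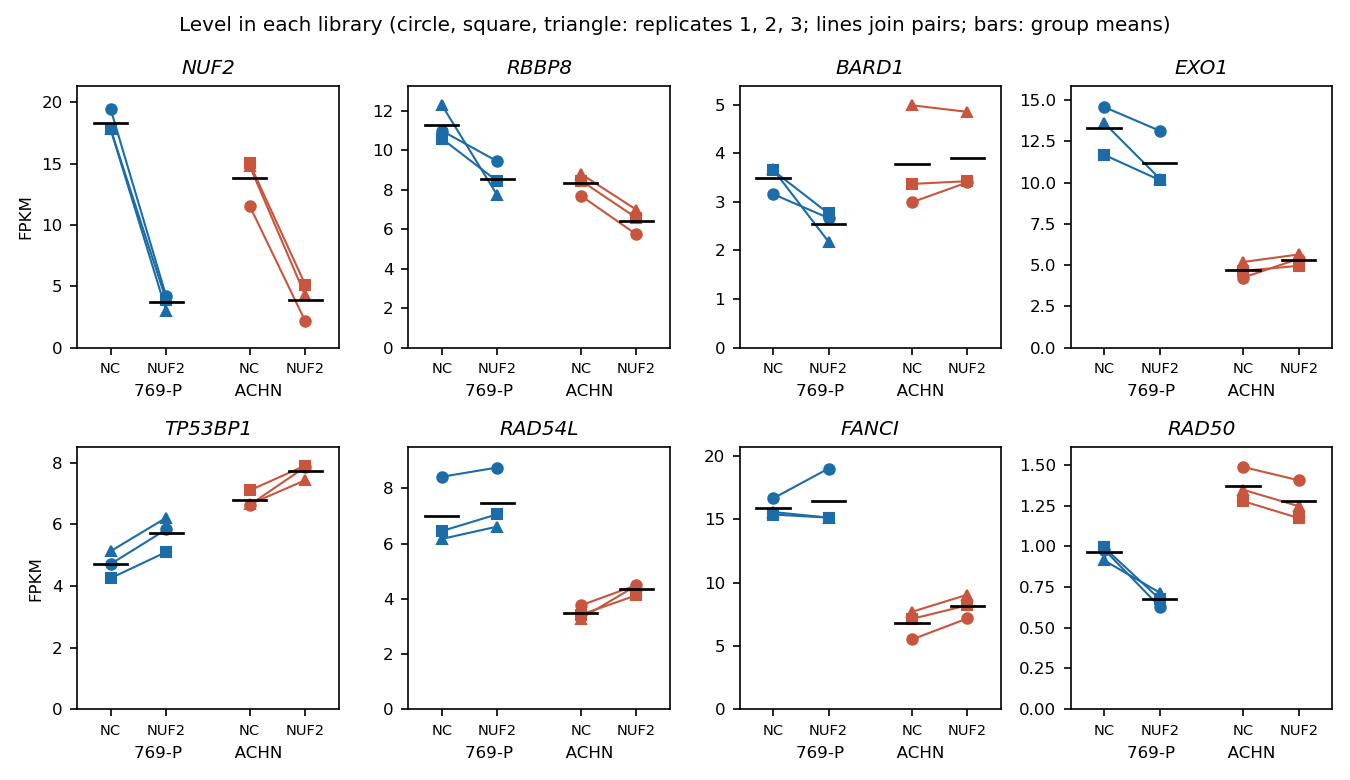
Levels in FPKM are plotted for NUF2, for the 6 genes called in either line with the block and for RAD50, with si-NC and si-NUF2 libraries of 769-P (blue) and ACHN (red) joined by replicate number and black bars at the group means. RBBP8 falls along every line, the group mean being 11.3 FPKM before and 8.54 FPKM after in 769-P cells and 8.33 and 6.44 FPKM in ACHN cells.

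Among the genes of homologous recombination, 9 of 12 were below 0 in 769-P cells and 12 of 12 were above 0 in ACHN cells, with medians of -0.16 and 0.21. Of all genes tested, 7258 of 14155 were below 0 in 769-P cells and 7745 of 15116 above 0 in ACHN cells. All 30 replication genes and 19 of 20 mitotic genes were above 0 in ACHN cells too. BARD1 and EXO1 were called in 769-P cells and RAD54L in ACHN cells, all with the block. BARD1 (chr2:214725646-214809711, minus strand), the partner of BRCA1 in its ubiquitin ligase, was at 3.16, 3.65 and 3.67 FPKM with si-NC and at 2.67, 2.76 and 2.18 FPKM with si-NUF2 in 769-P cells. All si-NUF2 libraries lay below the controls, and the log2 fold change was -0.44 ± 0.12 without the block (adjusted p = 0.0617) and -0.44 ± 0.11 with it (adjusted p = 0.0397). Leaving out pair 2 or 3 ended the BARD1 call (adjusted p = 0.0950 and 0.0683). In ACHN cells BARD1 was at 2.99, 3.37 and 4.99 FPKM with si-NC and at 3.40, 3.43 and 4.85 FPKM with si-NUF2, so the groups overlapped and replicate 3 was highest in both. The log2 fold change there was 0.07 (adjusted p = 0.545 with the block).

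BRCA1, the partner of BARD1, had overlapping groups in 769-P cells. Its values were 7.89, 6.41 and 7.86 FPKM with si-NC and 8.43, 6.61 and 7.37 FPKM with si-NUF2, a log2 fold change of 0.03. For BRCA1 the ACHN libraries were at 7.30, 7.42 and 7.91 FPKM with si-NC and at 8.75, 8.46 and 8.32 FPKM with si-NUF2. Here the groups did not overlap, and the log2 fold change of 0.19 had an adjusted p of 0.668 without and 0.102 with the block. BRCA2, which acts on resected ends, was at 2.23, 2.11 and 2.12 FPKM with si-NC and at 1.85, 1.98 and 1.67 FPKM with si-NUF2 in 769-P cells. These libraries did not overlap, with a log2 fold change of -0.21 and an adjusted p of 0.133 with the block. In ACHN cells BRCA2 was at 1.54, 1.75 and 2.46 FPKM with si-NC and at 1.999, 1.598 and 2.197 FPKM with si-NUF2, a log2 fold change of 0.04.

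The 3 recombination genes EXO1, RAD54L and XRCC2 are given in each library because of their calls or their place at the end of the order; EXO1 and RAD54L were chosen after their values were seen, as was FANCI below. EXO1 (chr1:241847967-241895148, plus strand), the exonuclease of long-range resection, was at 14.6, 11.7 and 13.6 FPKM with si-NC and at 13.2, 10.2 and 10.2 FPKM with si-NUF2 in 769-P cells. Each pair was lower with si-NUF2, the groups overlapped, and the log2 fold change of -0.24 ± 0.07 had an adjusted p of 0.0497 with the block and 0.295 without it. The EXO1 call was lost with median-ratio scaling (adjusted p = 0.0505) and without pair 1, 2 or 3 (adjusted p = 0.0735, 0.137 and 0.0793). In ACHN cells EXO1 was at 4.24, 4.65 and 5.19 FPKM with si-NC and at 5.38, 4.96 and 5.65 FPKM with si-NUF2, higher in 3 of 3 pairs, with a log2 fold change of 0.20 and an adjusted p of 0.143 with the block. RAD54L (chr1:46247688-46278473, plus strand), a motor protein of strand pairing, was at 3.76, 3.42 and 3.28 FPKM with si-NC and at 4.495, 4.13 and 4.48 FPKM with si-NUF2 in ACHN cells. No libraries overlapped, and the log2 fold change of 0.33 ± 0.07 had an adjusted p of 0.0430 with the block and 0.451 without it. The RAD54L call was lost without pair 1, 2 or 3 (adjusted p = 0.0950, 0.0844 and 0.164). In 769-P cells RAD54L was at 8.43, 6.46 and 6.17 FPKM with si-NC and at 8.76, 7.07 and 6.62 FPKM with si-NUF2, a log2 fold change of 0.11.

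XRCC2 and RAD51C both act in strand exchange, and their directions in 769-P cells differed. XRCC2 was at 13.03, 10.2 and 10.9 FPKM with si-NC and at 12.1, 9.48 and 9.67 FPKM with si-NUF2 in that line. In ACHN cells XRCC2 was at 4.68, 5.90 and 6.06 FPKM with si-NC and at 7.67, 6.77 and 7.14 FPKM with si-NUF2. The ACHN groups did not overlap, but the log2 fold change of 0.39 had an adjusted p of 0.495 without and 0.0899 with the block. RAD51C was at 4.36, 3.16 and 3.74 FPKM with si-NC and at 5.19, 3.5 and 4.37 FPKM with si-NUF2 in 769-P cells. For ACHN the levels were 4.05, 5.57 and 4.51 FPKM with si-NC and at 5.06, 6.11 and 5.195 FPKM with si-NUF2. Every pair was higher with si-NUF2 in each line, with log2 fold changes of 0.21 and 0.23 and adjusted p of 0.0527 and 0.0796 with the block. XRCC3 shares 76.7% of its exon bases with KLC1 on the other strand, so its value in 769-P cells, a log2 fold change of -0.23 (adjusted p = 0.0573 with the block), is uncertain.

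The Fanconi anemia genes were evenly divided in 769-P cells, with 4 of the 8 tested below 0 and a median of -0.001. In ACHN cells 8 of 9 were above 0 with a median of 0.16, and FANCI was called. FANCI (chr15:89243949-89317261, plus strand), which is ubiquitinated together with FANCD2 at crosslinks, was at 5.50, 7.13 and 7.69 FPKM with si-NC and at 7.17, 8.21 and 9.04 FPKM with si-NUF2 in ACHN cells. Each pair was higher with si-NUF2 although the groups overlapped, and the log2 fold change of 0.29 ± 0.06 had an adjusted p of 0.0467 with the block and 0.768 without it. Leaving out pair 1, 2 or 3 ended the FANCI call (adjusted p = 0.119, 0.0799 and 0.150). In 769-P cells FANCI was at 16.6, 15.4 and 15.6 FPKM with si-NC and at 19.0, 15.1 and 15.1 FPKM with si-NUF2, a log2 fold change of 0.05. FANCE, a subunit of the core complex, was at 1.77, 2.42 and 2.58 FPKM with si-NC and at 2.04, 3.38 and 3.43 FPKM with si-NUF2 in ACHN cells, where its log2 fold change of 0.37 had an adjusted p of 0.0504 with the block. In 769-P cells FANCE was at 1.54, 1.09 and 1.46 FPKM with si-NC and at 1.81, 1.102 and 1.54 FPKM with si-NUF2. FANCM, the translocase that loads the core complex, was low throughout, with group means of 0.363 to 0.566 FPKM.

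The mismatch repair genes were above 0 in both lines without a call in the reported fits. MSH6, which recognizes mismatches, was at 9.87, 10.7 and 10.2 FPKM with si-NC and at 11.6, 12.1 and 10.6 FPKM with si-NUF2 in 769-P cells. In ACHN cells MSH6 was at 6.49, 8.32 and 8.15 FPKM with si-NC and at 9.86, 9.53 and 10.5 FPKM with si-NUF2. The ACHN groups did not overlap, and MSH6 had the highest log2 fold change of the 34 genes there, 0.40 ± 0.09 with an adjusted p of 0.0516 with the block. PMS2, which acts after a mismatch is recognized, had log2 fold changes of 0.08 and 0.19 (adjusted p = 0.357 and 0.123 with the block), and reads may be divided between it and its many annotated copies.

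The checkpoint kinases gave no call in either line. All 5 genes of this role with a test in 769-P cells lay below 0, at log2 fold changes of -0.14 to -0.03. ATM was at 1.051, 0.955 and 1.23 FPKM with si-NC and at 1.001, 0.964 and 1.17 FPKM with si-NUF2 in 769-P cells. In ACHN cells ATM was at 3.21, 2.73 and 3.10 FPKM with si-NC and at 3.05, 2.34 and 2.24 FPKM with si-NUF2. It was lower in 3 of 3 ACHN pairs, with a log2 fold change of -0.23 and an adjusted p of 0.177 with the block. ATR was at 5.15, 5.08 and 5.54 FPKM with si-NC and at 4.64, 4.71 and 4.80 FPKM with si-NUF2 in 769-P cells. In ACHN cells ATR was at 2.39, 2.32 and 2.26 FPKM with si-NC and at 2.21, 2.09 and 2.08 FPKM with si-NUF2. ATR was the gene besides RBBP8 whose groups did not overlap in the same direction in both lines, but the log2 fold changes were only -0.14 and -0.11, with adjusted p of 0.115 and 0.380 with the block. The share of all genes with such groups was not counted, so no trait of ATR is read from this.

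CHEK1, the kinase below ATR, was at 5.01, 5.19 and 5.49 FPKM with si-NC and at 5.37, 4.28 and 4.90 FPKM with si-NUF2 in 769-P cells. In ACHN cells CHEK1 was at 6.90, 5.50 and 7.95 FPKM with si-NC and at 7.82, 5.84 and 8.12 FPKM with si-NUF2. The groups overlapped in both lines, and the log2 fold changes were -0.10 and 0.11. CHEK2, the kinase below ATM, was at 4.79, 4.005 and 4.08 FPKM with si-NC and at 4.34, 3.87 and 3.49 FPKM with si-NUF2 in 769-P cells. In ACHN cells CHEK2 was at 4.51, 3.71 and 5.003 FPKM with si-NC and at 4.27, 3.63 and 5.26 FPKM with si-NUF2. CHEK2, which has annotated pseudogene copies, had log2 fold changes of -0.13 and 0.01 with overlapping groups. ATRIP, the partner of ATR, was at most 0.0640 FPKM in any library, and TREX1, which covers part of its exons and for which the overlap is 27.9% of ATRIP, was listed at 0 in all 12 libraries. The level of ATRIP here rests on at most about 13 reads in a library, a count that is approximate, and may lack reads from the shared bases, whose assignment is not given. The remaining 16 genes, ATRIP included, held no call, and those tested had log2 fold changes of -0.23 (XRCC3) to 0.16 (FANCF) in the 769-P line and of -0.04 (FANCC) to 0.31 (FANCD2) in the ACHN line.

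A difference in response between the lines was tested by an interaction term in 1 fit to the 12 libraries. None of the 34 genes tested was called, without the block, where 0.0% of all 16564 genes were, or with it, where 1.52% were. The difference, ACHN minus 769-P, was above 0 for 29 of 34 genes, with a median of 0.23 beside 0.02 over all genes, and for 12 of 12 recombination genes, with a median of 0.31. Among all 16564 genes 8800 were above 0, and so were 30 of 30 replication genes (median 0.42). Unadjusted p-values were under 0.05 for 4 of the 34 genes without the block (11.8%, against 4.68% of all genes) and 14 with it (41.2%, against 19.9%). For RBBP8 the difference was 0.05 with a 95% interval of -0.24 to 0.33 with the block, for BARD1 0.52 (0.17 to 0.86), for EXO1 0.45 (0.20 to 0.70) and for TP53BP1 -0.08 (-0.23 to 0.07), with adjusted p of 0.871, 0.123, 0.0898 and 0.532. The calls made in 1 line only are therefore not shown to differ between the lines.

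Between the si-NC libraries of the lines, 22 of 33 genes (66.7%) were called, a share near the 61.5% of all 15376 genes. The lines also differ in origin and culture, which cannot be told apart from the cell line. In ACHN cells 15 of the 33 were lower, against 32.2% of all genes, and 7 were higher, against 29.3%. EXO1 had the lowest log2 difference, -1.52 ± 0.13 (adjusted p = 9.8e-05), with means of 13.3 FPKM in 769-P and 4.69 FPKM in ACHN cells. NBN differed by -1.39, BLM, the helicase lost in Bloom syndrome, by -1.27 and FANCI by -1.27. The checkpoint kinases diverged, since ATR was lower in ACHN cells at -1.18 ± 0.11 (adjusted p = 0.000135) and ATM was higher at 1.37 ± 0.15 (adjusted p = 0.000319). ATM had means of 1.08 FPKM in 769-P and 3.01 FPKM in ACHN cells and ATR of 5.25 and 2.33 FPKM. Within the MRE11-RAD50-NBN complex, MRE11 was higher in ACHN cells by 0.82 and RAD50 by 0.43, while NBN was lower. PMS2 was higher by 0.55, TP53BP1 by 0.49, FANCE by 0.65 and PALB2, which joins BRCA1 to BRCA2, by 0.36. BRCA1, BARD1 and CHEK2 had differences of -0.001, 0.04 and -0.01, with 95% intervals of -0.28 to 0.28, -0.44 to 0.52 and -0.36 to 0.35. Per kilobase, the level of the genes under si-NC spanned 0.0122 FPKM (ATRIP) to 30.6 FPKM (NBN) in the 769-P line, and 0.0497 FPKM (ATRIP) to 15.3 FPKM (RAD51AP1) in the ACHN line.

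**Figure D3:**
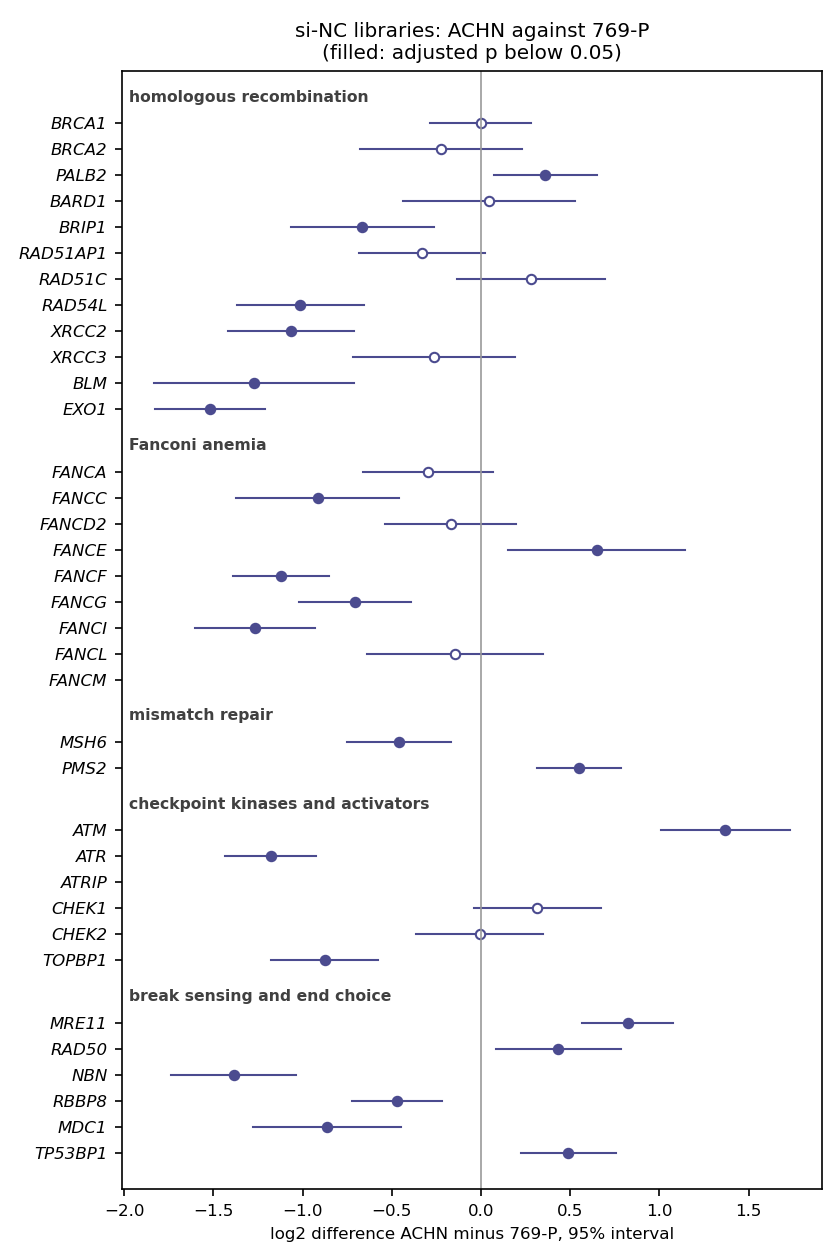
The log2 difference of each gene between ACHN and 769-P cells in the si-NC libraries is plotted with its 95% interval, with filled points for the 22 called genes. EXO1 lies farthest to the left at -1.52 and ATM farthest to the right at 1.37, and the 2 kinases ATM and ATR stand on opposite sides of 0.

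The other genes of these pathways were counted from lists drawn up with earlier results known. With the block, 3 of 36 other recombination and Fanconi genes were lower and 4 higher in 769-P cells (median -0.06), and none lower and 4 higher of 37 in ACHN cells (median 0.07). The shares of all genes were 13.9% lower and 13.6% higher in 769-P cells, and 5.05% lower and 7.14% higher in ACHN cells. Among those higher in ACHN cells were UIMC1 at 0.42 (adjusted p = 0.0220), SFR1 at 0.46 and EME1 at 0.33, and UIMC1, a subunit of the BRCA1-A complex, was also higher in 769-P cells at 0.52 (adjusted p = 0.00947). Of 18 other checkpoint genes, 2 were lower and 4 higher in 769-P cells, with CLSPN, the adaptor through which ATR acts on CHEK1, at -0.42 (adjusted p = 0.0182), and 2 were higher in ACHN cells, TIMELESS at 0.34 and CDC25A at 0.54.

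The counts outside recombination are also from the fit with the block. Of 19 end-joining genes, 5 were lower and 2 higher in 769-P cells, and none lower and 4 higher in ACHN cells. Of all genes tested, 13.9% were lower and 13.6% higher in 769-P, and 5.05% lower and 7.14% higher in ACHN cells. Without the block, 2 end-joining and 4 nucleotide excision genes were called in 769-P cells, all higher, and no base excision gene. No gene was called in ACHN cells without it. XRCC4, the scaffold of DNA ligase IV, was higher in both, at 0.60 (adjusted p = 0.00983) and 0.53 (adjusted p = 0.0171), as was SHLD2, a shieldin subunit that acts with TP53BP1, at 0.55 and 0.50. Of 20 base excision genes, 4 were lower in 769-P cells, among them OGG1, the glycosylase for oxidized guanine, at -0.45 and PARP1 at -0.32, and 1 was higher in ACHN cells, MUTYH at 0.25. Nucleotide excision repair had 9 of 22 genes higher and none lower in 769-P cells (median 0.17) and 5 higher and none lower in ACHN cells (median 0.03). XPC, which senses the lesion, was higher at 0.89 (adjusted p = 0.00809) and 0.46 (adjusted p = 0.0137). The log2 fold changes of XPC exceeded those of each tested gene of the 35 in the same line, a comparison of values that was not tested.

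Replication and mitotic genes, which follow proliferation, were read beside the repair genes. In ACHN cells all 30 replication genes were above 0, 15 of them called with the block and none without it, with a median of 0.45 and GINS2 at 0.97 and E2F1 at 0.81, and their summed level was 474 to 515 FPKM with si-NUF2 against 313 to 408 FPKM with si-NC. Of 20 mitotic genes, 19 were above 0 and 5 were called higher with the block (median 0.17). The share of all genes called higher in ACHN cells with the block was 7.14%. In 769-P cells 19 of 30 replication genes were above 0 (median 0.05), and 8 of 20 mitotic genes were (median -0.06). Of the replication genes there, 2 were called lower and 6 higher with the block, against 13.9% and 13.6% of all genes. Between the si-NC libraries, all 30 replication genes were lower in ACHN cells, 27 of them called, with a median of -1.27. The part of these movements in the values of the repair genes was not tested.

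**Figure D4:**
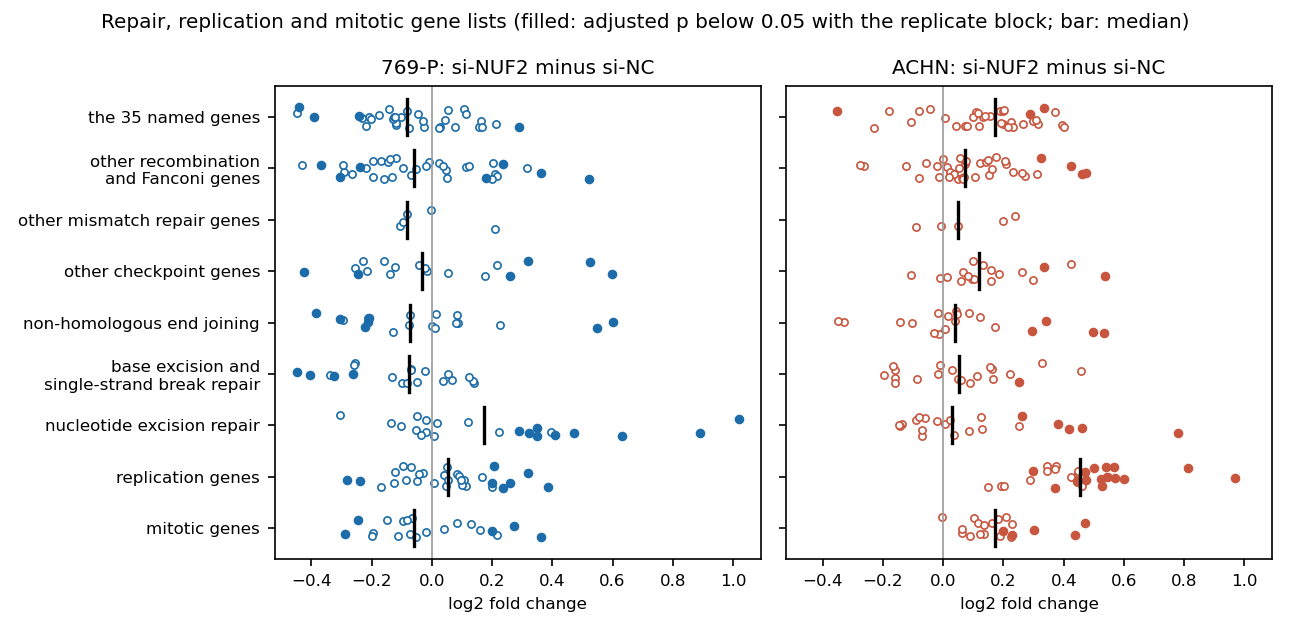
The log2 fold change, si-NUF2 minus si-NC, of each tested gene of the repair, replication and mitotic lists is plotted as a point for 769-P (left) and ACHN (right) cells, with vertical bars at the list medians and filled points for genes called with the replicate block. The median of the named genes is -0.08 over the 33 tested in 769-P and 0.17 over the 34 tested in ACHN cells, and that of the replication genes moves from 0.05 to 0.45.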

How the data were processed

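RNA of 12 libraries was sequenced by the study on the Illumina platform. The authors filtered reads with fastp, and the submitters' processing notes name HISAT2 2.0.5, featureCounts 1.5.0-p3 and hg38; the values the authors deposited are FPKM, 1 per gene and library, with the strand setting not given in the sources used here. The unit is not a count, so no count model was used. Exon positions came from GENCODE 29, whose exon lengths gave whole reads within 0.02 for 96.7% to 97.1% of values under 50 reads. No library was a copy of another: recovered reads of replicates, set side by side over the listed genes, gave a chi-square of 16.7 or more for each gene on average.

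FPKM were scaled by a trimmed mean of log ratios (30% of ratios and 5% of levels trimmed), and log2(FPKM + 0.1) was fitted with limma 3.58.1 (lmFit, eBayes with trend) in R 4.3.3 for genes of at least 0.5 FPKM in at least 3 libraries. Each line was fitted alone, and the interaction used all 12 libraries. The fit was run on simulated data whose changes were larger than those of the checkpoint and repair genes with si-NUF2. That run does not show how often changes of this smaller size are found. The labels number the replicates. Deviations of same-numbered libraries correlated at 0.19 to 0.36 for 769-P and at 0.46 to 0.73 for ACHN, all above 0.1. The numbers were therefore taken to pair the libraries, which the labels do not state, and fits with the replicate block were added. The genes and lists were chosen with earlier results of these data known. Values in every library are given for NUF2, for BRCA1, BRCA2, ATM, ATR, CHEK1 and CHEK2, for genes called in 769-P cells without the block or in both lines with it, and for the 3 lowest and 3 highest log2 fold changes of each line; EXO1, RAD54L and FANCI were added later. Alternatives changed the scaling, the pseudocount, the filter, the libraries and the block. Some genes of these pathways are not reported here.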

Additional observations from a re-analysis of the deposited data

Results flagged for a closer look

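On the scaled values of the fit, for 6 genes every si-NUF2 library lay below its same-numbered control in 769-P cells and above it in ACHN cells, 3 of 3 pairs in each line, and for none the reverse held. How many of all genes did so was not counted, here or for the pair counts below. No trait of these genes is read from the counts. The difference in log2 response, ACHN minus 769-P, was 0.52 for XRCC2, 0.51 for BRIP1, 0.49 for BLM, 0.45 for EXO1, 0.34 for TOPBP1 and 0.23 for FANCG. None passed limma's interaction test, with adjusted p from 0.991 to 1.00 without and from 0.0898 to 0.253 with the replicate block, so a difference between the lines is not shown for any of them. By comparison, 4 genes (ATR, RAD50, NBN and RBBP8) were lower and 8 (RAD51C, RAD54L, FANCE, FANCF, MSH6, PMS2, MRE11 and TP53BP1) were higher in every pair of both lines on the same scale. On the deposited FPKM, without the further scaling, RAD51AP1 joined the genes lower in 769-P and higher in ACHN cells, which made 7, and MRE11, whose pair 2 in ACHN cells was at 4.73 and 4.71 FPKM, left the last group, which made 7.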

How the results depend on the processing

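With the replicate block the count of called genes was 4 instead of 0 in 769-P and 3 instead of 0 in ACHN cells. Without the block, a filter of 1 FPKM gave 1 gene in 769-P cells and so did no further scaling, RBBP8 in both; leaving out single libraries gave 0 in each line. With the block, leaving out a replicate pair gave 0 to 2 genes in 769-P (0 without pair 2) and 0 to 1 in ACHN cells (0 without pair 1 or 3), and in ACHN cells a pseudocount of 1 gave 5 (14.7%, against 12.3% of all genes) and a filter of 1 FPKM gave 6 (18.2%, against 17.2%); these paired alternatives and the missing scaling were chosen after seeing the data. NUF2 in ACHN cells passed the threshold with the block (-1.87, adjusted p = 0.0122) and in a fit of all 12 libraries (-1.88, adjusted p = 0.0109). The interaction gave 0 genes and the si-NC comparison 18 to 22 under every alternative run. Of 38 values followed (19 genes in each line), 28 kept their direction and 10 near 0 did not when single libraries were left out. In 769-P cells these were BRCA1 (-0.075 to 0.11), ATM (-0.11 to 0.057), NBN (-0.20 to 0.036), FANCE (-0.040 to 0.30), RAD54L (-0.017 to 0.25) and FANCI (-0.060 to 0.11), and in ACHN cells BRCA2 (-0.094 to 0.23), CHEK1 (-0.024 to 0.27), CHEK2 (-0.14 to 0.13, also -0.0041 with median-ratio scaling and -0.011 with none) and BARD1 (-0.098 to 0.28). ATRIP and FANCM rest on at most about 13 and 222 reads in a library, the first of which is approximate.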
